A study of Homo sapiens with 6 samples.

Results

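Integrin subunits and the adaptor proteins of focal adhesions were examined as 35 genes, picked by gene name from the 37887 gene rows of the count table. They comprised 11 integrin alpha subunits, 7 beta subunits, 5 talins and kindlins, 5 genes of the ILK, PINCH and parvin complex, 5 scaffold proteins, and a kinase with its docking protein. Messenger RNA was sequenced from MDA-MB-436, an established triple-negative breast cancer (TNBC) line with a BRCA1 mutation that stably carried a tetracycline-inducible short hairpin RNA (shRNA) against MUC1. Control cells received 0.1% DMSO as vehicle, and shMUC1 cells received 500 ng/ml doxycycline, which switches the shRNA on. Each group had 3 libraries from cells cultured in triplicate, so p-values measure the spread between these libraries, which may be technical. The sample titles name the control a control shRNA, whereas its treatment label and the series design give vehicle on the same inducible MUC1 shRNA cells, and this second reading was used. Cells given doxycycline without a MUC1 shRNA, or with another shRNA against MUC1, were not analysed here. Doxycycline, MUC1 silencing and other effects of the shRNA therefore cannot be told apart. The labels do not give the treatment time.

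Integrins are cell-surface receptors made of one alpha and one beta subunit, and the pair decides which matrix protein is bound. Talins and kindlins bind the beta subunit tail inside the cell and switch the receptor on. Vinculin, paxillin, zyxin, tensins, the ILK-PINCH-parvin complex and focal adhesion kinase then assemble on it, linking the matrix to actin and to signalling. In breast cancer, integrins are known for roles in adhesion to the basement membrane, migration and invasion.

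Libraries held 18678307 to 27825546 counts, of which the 35 members took 0.421% to 0.451%. Levels are given as counts per 1000000 (CPM), and 3 counts correspond to 0.161 CPM in the shallowest library, counting error only. The targeted gene MUC1 had 93, 84 and 102 counts in control and 72, 51 and 34 counts in shMUC1 libraries and fell by 0.84 on the log2 scale (edgeR adjusted p = 0.00119), from 3.88 ± 0.401 to 2.14 ± 0.412 CPM (SD, n = 3 each). The line was checked against its markers: the hormone receptor genes ESR1 and PGR had at most 12 and 4 counts in any library, and ERBB2 stood at 44.7 CPM in control cells. Of 9 breast subtype markers, 7 were tested, 5 were higher in shMUC1 cells and 2 lower. The luminal keratin KRT8 went from 426 to 825 CPM and the mesenchymal filament gene VIM from 718 to 417 CPM. Mitochondrially encoded genes took 3.35% to 4.17% of control and 4.95% to 5.22% of shMUC1 counts. The part of these shifts in the results on adhesion genes was not tested.

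Of the 35 members, 30 passed the filter on low counts and were tested together with all other genes. At an adjusted p under 0.05 (quasi-likelihood test of edgeR, Benjamini-Hochberg adjustment over 15355 genes), 8 members were higher in shMUC1 cells, 10 were lower and 12 were not called. Over all tested genes, 25.2% were higher and 23.6% lower by the same rule. These shares are also the background for the counts by role and by gene list in the other paragraphs. The changes went both ways inside the group: the collagen receptor subunit ITGA2 doubled, whereas ITGA3, ITGA4, ITGA7, ITGA9, ITGAV and ITGB8 fell. The median log2 fold change was -0.01 over the 30 members, against 0.00058 over all tested genes. The median size of the change, regardless of sign, was 0.36 for members and 0.24 for all tested genes. The call with a fold change over 2 was met by 3 members, ITGA2, ITGA7 and ITGA9, and by 5.95% of all tested genes. The CPM ranges of control and shMUC1 libraries were apart for 19 of the 30 members, with shMUC1 above for 9 and below for 10, against 54.8% of all tested genes. Among the 8 higher members, ITGB1, PARVA, PARVB and LIMS2 had the weakest calls: 4 members were higher without shMUC1 replicate 1, 5 without shMUC1 replicate 2, and 5 without control replicate 3.

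**Figure D1:**
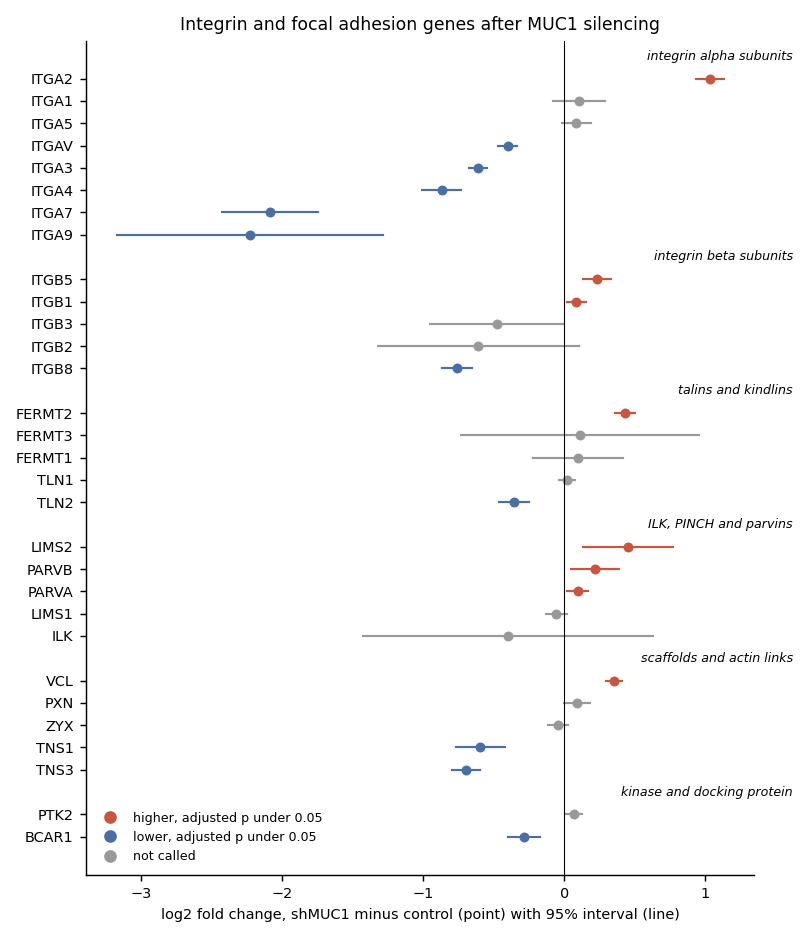
Log2 fold change (shMUC1 minus control, horizontal axis) of the 30 tested members, ordered by role, with points for the estimate and lines for its 95% interval. Red points are higher and blue points lower at an adjusted p under 0.05, and grey points were not called. ITGA2 stands alone at 1.03 on the right, and ITGA7 and ITGA9 lie beyond -2 on the left, ITGA9 with a wide interval from -3.17 to -1.29.

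Short sequences found in 4 of the members are shown first. A word of 7 bases, ATCAGTA, came out of an earlier scan of these same libraries as the word most tied to lower expression when it stands in the 3' untranslated region (3' UTR), so its use here gives no independent support. Among the 30 tested members, 4 carried it in an annotated protein-coding 3' UTR (13.3%), against 1661 of 13020 tested genes with such a region (12.8%). The sites lie on the plus strand of GRCh38, at chr5:52954065-52954091 in ITGA1, chr3:37822055-37822081 in ITGA9, chr2:186679144-186679170 in ITGAV and chr7:20415298-20415324 in ITGB8, and the capitals mark the word.
ITGA1: tgccaaagccATCAGTAgctggaagaa
ITGA9: gatggggtggATCAGTAcatctgtgtt
ITGAV: cctgccaccaATCAGTAagttagtcta
ITGB8: tattaaacttATCAGTAacataaaaac
ITGAV and ITGB8 have an A directly after the word, whereas ITGA1 and ITGA9 do not. Of the 4 members, ITGA9, ITGAV and ITGB8 were lower in shMUC1 cells, and ITGA1 had a log2 fold change of 0.10 that was not called. The median log2 fold change was -0.58 for members with the word and 0.04 for members without it, beside -0.12 and 0.03 over all tested genes. ITGA3, ITGA4, ITGA7, TNS1, TNS3, TLN2 and BCAR1, also lower, carried no such word in an annotated 3' UTR. MUC1, the target of the shRNA and not a member, had the word at chr1:155187762-155187788 on the minus strand. The gene spans chr1:155185824-155192916, with 29 annotated transcripts, and the site lies away from its 3' end. A gene was scored if any protein-coding transcript had the word in its 3' UTR. The MUC1 site may therefore not be 3' UTR in its other transcripts, which was not examined.

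Among integrin alpha subunits, 8 of 11 were tested, with 1 higher, 5 lower and 2 not called, and a median log2 fold change of -0.51. ITGA2 (chr5:52989326-53094779, plus strand, GRCh38) encodes the alpha subunit of the collagen and laminin receptor alpha2beta1. It stood at 46.8, 45.6 and 46.2 CPM in control and at 95.8, 90.4 and 97.6 CPM in shMUC1 libraries. Every shMUC1 library lay far above every control library, and the libraries of a group differed little. ITGA2 rose 2.05-fold, a log2 fold change of 1.03 (SE 0.0498, edgeR adjusted p = 2.13e-19).

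ITGA3 (chr17:50055968-50090481, plus strand) encodes the alpha subunit of the laminin receptor alpha3beta1. Its level was 466, 470 and 482 CPM in control and 299, 325 and 305 CPM in shMUC1 libraries, with no overlap. ITGA3 fell by 0.61 on the log2 scale (SE 0.0332, edgeR adjusted p = 7.23e-18), from 473 ± 8.26 to 310 ± 13.5 CPM (SD, n = 3 each). ITGAV (chr2:186590065-186680901, plus strand), the alpha subunit that pairs with several beta subunits to bind vitronectin, fibronectin and latent TGF-beta, had the highest level per length of exon among the integrin members in control cells. It had 494, 508 and 496 CPM in control and 369, 401 and 364 CPM in shMUC1 libraries. The groups did not overlap, and ITGAV fell by 0.40 (log2, SE 0.0335, edgeR adjusted p = 1.02e-12).

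ITGA4 (chr2:181457202-181536187, plus strand), the alpha subunit of the fibronectin and VCAM-1 receptor best known on leukocytes, had 48.3, 50.01 and 47.5 CPM in control and 23.7, 29.7 and 26.6 CPM in shMUC1 libraries. All shMUC1 values were below all control values, and ITGA4 fell by 0.87 on the log2 scale (SE 0.0707, edgeR adjusted p = 5.60e-13). ITGA7 (chr12:55684568-55716043, minus strand), a laminin receptor subunit prominent in muscle, had 7.12, 8.29 and 8.87 CPM in control and 1.74, 2.02 and 1.99 CPM in shMUC1 libraries. It fell 4.24-fold, a log2 fold change of -2.08 (SE 0.174, edgeR adjusted p = 1.10e-12), and the groups were widely separated. ITGA9 (chr3:37452115-37823514, plus strand), which binds tenascin-C and osteopontin, was scarce, with 21, 30 and 34 counts in control and 12, 4 and 2 counts in shMUC1 libraries. The groups did not overlap, and ITGA9 had a log2 fold change of -2.23 (SE 0.482, edgeR adjusted p = 0.000189), which became -3.07 without shMUC1 replicate 1.

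ITGA1 and ITGA5 were not called. ITGA1, a collagen receptor subunit, had 16.4 ± 1.56 CPM in control and 17.6 ± 0.586 CPM in shMUC1 libraries (SD, n = 3 each), and its 95% interval of log2 fold change ran from -0.08 to 0.29. ITGA5, the alpha subunit of the classical fibronectin receptor, had 72.5 ± 2.96 and 76.6 ± 6.02 CPM (SD, n = 3 each), with an interval from -0.02 to 0.19. The call of ITGA5 changed when shMUC1 replicate 3 was left out, with a log2 fold change of 0.14 and an edgeR adjusted p of 0.033. ITGA8, ITGA10 and ITGA11 did not pass the filter on low counts. ITGA8 had 0, 2 and 0 counts in control and 0 in every shMUC1 library. ITGA10 had 2, 6 and 15 counts against 4, 4 and 3, and ITGA11 had 12, 19 and 4 counts against 6, 0 and 2. Without the filter, ITGA11 had a log2 fold change of -2.10 that passed the threshold (edgeR adjusted p = 0.0282), whereas ITGA8 and ITGA10 did not pass (edgeR adjusted p = 0.479 and 0.474).

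Among beta subunits, 5 of 7 were tested, with 2 higher, 1 lower and 2 not called, and a median log2 fold change of -0.48. That median is the value of ITGB3, which was not called, and the 2 higher genes were ITGB1 and ITGB5. ITGB1 (chr10:32900319-33005792, minus strand), the common partner of most alpha subunits, had 277, 293 and 273 CPM in control and 295, 305 and 294 CPM in shMUC1 libraries. The shMUC1 values lay narrowly above the control values, and ITGB1 had a log2 fold change of 0.08 (SE 0.034, edgeR adjusted p = 0.0373). That call was lost without control replicate 1, control replicate 3, shMUC1 replicate 1 or shMUC1 replicate 2, with edgeR adjusted p from 0.0558 to 0.225. Library totals in place of TMM scaling and a mean of at least 50 counts also ended it, with edgeR adjusted p of 0.113 and 0.119.

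ITGB8 (chr7:20330702-20415754, plus strand), a partner of alphaV that binds latent TGF-beta, had 71.7, 79.7 and 76.6 CPM in control and 43.8, 46.8 and 44.3 CPM in shMUC1 libraries. The groups stood clearly apart, and ITGB8 fell by 0.76 on the log2 scale (SE 0.0541, edgeR adjusted p = 1.61e-14). ITGB5, another alphaV partner and a vitronectin receptor subunit, rose by 0.23 on the log2 scale (edgeR adjusted p = 0.000312), from 57.8 ± 2.005 to 68.0 ± 3.004 CPM (SD, n = 3 each). The beta partners of alphaV in this line did not move in one direction.

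ITGB3, the platelet and vitronectin receptor subunit, had 2.86 ± 0.491 CPM in control and 2.06 ± 0.375 CPM in shMUC1 libraries (SD, n = 3 each) and was not called (edgeR adjusted p = 0.102). The same-strand gene AC068234.1, which is not a row of the table, covers 51.6% of its annotated exon bases, so the ITGB3 count is uncertain. ITGB2, the leukocyte integrin subunit, had 29, 37 and 31 counts in control and 20, 18 and 24 counts in shMUC1 libraries (edgeR adjusted p = 0.169). ITGB6 had 1, 4 and 10 counts against 10, 10 and 0, and ITGB7 had 2, 1 and 4 counts against 0, 2 and 0. Neither passed the filter or, without it, the threshold (edgeR adjusted p = 0.794 and 0.535). The same-strand gene AC092153.1, also not a row of the table, covers 20.6% of the ITGB6 exon bases. The opposite-strand gene ZNF740 covers 42.1% of those of ITGB7, so both counts are uncertain.

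Leukocyte and endothelial markers were read beside ITGA4, ITGB2 and FERMT3, whose products are typical of blood cells. Of 8 such markers, 4 were tested, 2 were higher in shMUC1 cells and 1 was lower. Their summed level was 5.61 to 5.87 CPM in control and 6.72 to 9.09 CPM in shMUC1 libraries, and the T cell marker CD3E had 0 counts in all 6 libraries. CD14 and PTPRC were higher in shMUC1 cells and PECAM1 was lower (edgeR adjusted p = 2.93e-06, 0.0113 and 0.00032), and ITGAM was not called. PTPRC and PECAM1 were scarce. PTPRC had 2, 6 and 10 counts in control and 21, 24 and 10 in shMUC1 libraries, and PECAM1 36, 40 and 25 against 13, 4 and 9. The part of these markers in the levels of ITGA4, ITGB2 and FERMT3 was not tested.

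**Figure D2:**
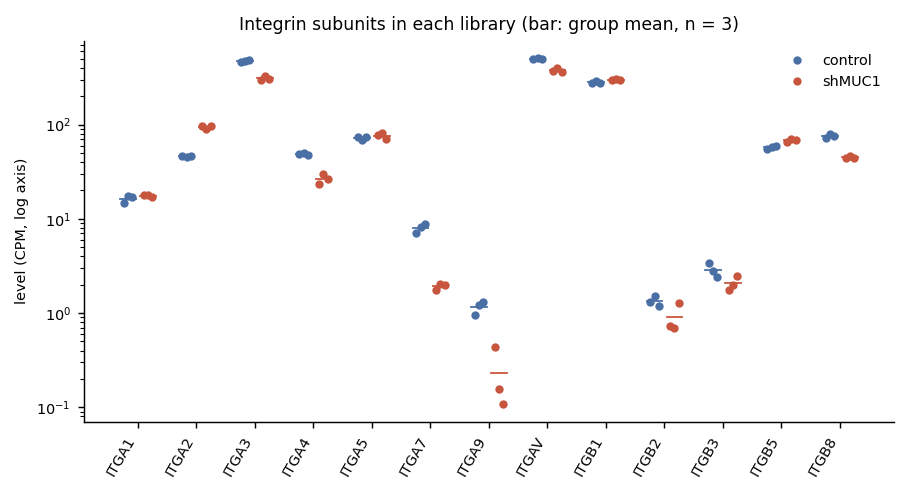
Level of the 13 tested integrin subunits in each library (CPM, log axis), with blue points for the 3 control and red points for the 3 shMUC1 libraries and short bars for group means. ITGA2 lies near 46 CPM in control and near 95 CPM in shMUC1 libraries, whereas ITGA3, ITGA4, ITGA7, ITGA9, ITGAV and ITGB8 are lower in all 3 shMUC1 libraries.

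To compare levels between genes, CPM was divided by the length of each gene's annotated exons in kilobases. In control cells ITGAV (60.8 CPM per kb), ITGA3 (48.2) and ITGB1 (46.8) led the integrin members on this scale. ITGA6 and ITGB4, outside the members, were not placed on it. ITGAV made up 45.7% ± 0.592 of the summed level of the 11 alpha members in control and 44.1% ± 0.536 in shMUC1 libraries (SD, n = 3 each). The share of ITGA3 went from 36.3% ± 0.444 to 30.3% ± 0.358, and that of ITGA2 from 4.39% ± 0.0928 to 11.5% ± 0.906. ITGA5 took 7.19% of the alpha sum in control and 9.68% in shMUC1 libraries, and ITGA4 took 4.63% and 3.23%. With mean transcript length in place of exon length, ITGA3 led instead, at 47.7% in control and 42.0% in shMUC1 libraries, ITGAV had 33.9% and 34.5%, and ITGA2 had 1.82% and 5.01%. By exon length ITGA2 moved from rank 17 to rank 11 among the 35 members.

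Among the 7 beta members, ITGB1 made up 75.8% ± 0.722 of the summed level per length in control and 77.8% ± 0.593 in shMUC1 libraries (SD, n = 3 each). ITGB5 went from 14.6% ± 0.643 to 16.5% ± 0.458, and ITGB8 from 8.13% ± 0.259 to 4.65% ± 0.0622. With mean transcript length ITGB8 had 5.39% and 3.04%. These shares describe transcripts and leave out ITGA6 and ITGB4, which are not among the members. Both were higher in shMUC1 cells: ITGA6, a laminin receptor subunit, went from 420 ± 7.54 to 731 ± 19.9 CPM, and its partner ITGB4, the hemidesmosome subunit, from 130 ± 12.3 to 203 ± 5.01 CPM (SD, n = 3 each). Their log2 fold changes were 0.80 and 0.64 (edgeR adjusted p = 1.62e-22 and 1.05e-14).

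**Figure D3:**
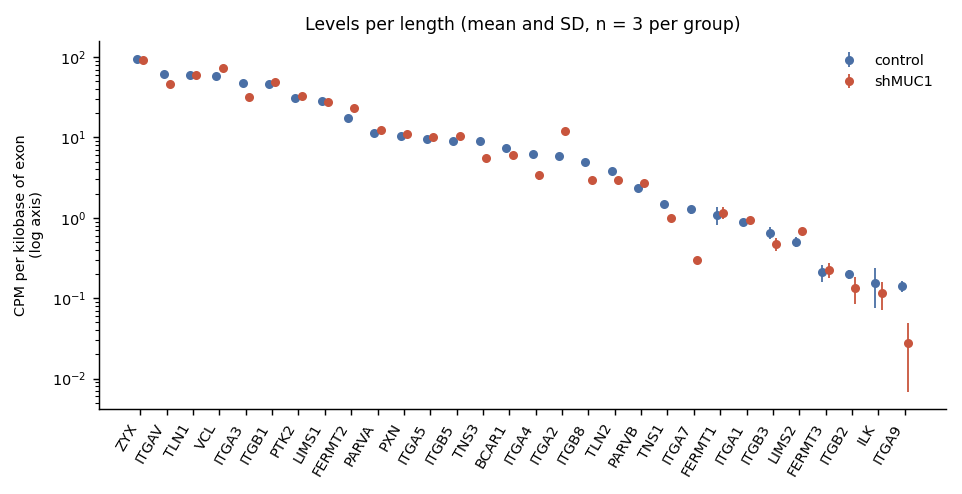
Level per kilobase of annotated exon (CPM per kb, log axis) of the 30 tested members, ordered by the control mean, with points for group means and lines for the SD over 3 libraries. ZYX leads in both groups at 94.4 and 91.6 CPM per kb, and ITGA2 is displaced upwards in shMUC1 cells from 5.84 to 11.96 CPM per kb.

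Among talins and kindlins, which activate integrins, all 5 were tested, with 1 higher, 1 lower and 3 not called. TLN1 (chr9:35696948-35732395, minus strand), the main talin of non-muscle cells, had 591, 596 and 616 CPM in control and 608, 610 and 608 CPM in shMUC1 libraries. The shMUC1 values lay within the control range, with a log2 fold change of 0.02 and a 95% interval from -0.04 to 0.08. Its paralog TLN2 fell by 0.36 on the log2 scale (SE 0.0545, edgeR adjusted p = 7.75e-07), from 61.8 ± 2.38 to 48.1 ± 1.51 CPM (SD, n = 3 each). FERMT2, which encodes the broadly expressed kindlin-2, rose from 149 ± 2.76 to 201 ± 3.17 CPM, a log2 fold change of 0.43 (SE 0.0362, edgeR adjusted p = 1.24e-12). The groups did not overlap for TLN2 or FERMT2. FERMT1, the epithelial kindlin, and FERMT3, the kindlin of blood cells, had log2 fold changes of 0.10 and 0.11 with 95% intervals from -0.22 to 0.42 and from -0.73 to 0.96.

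In the ILK, PINCH and parvin group, 3 of 5 genes were higher, none was lower and 2 were not called. The complex of these proteins connects the beta subunit tail to actin. LIMS2, which encodes PINCH-2, rose from 4.26 ± 0.594 to 5.80 ± 0.511 CPM (log2 fold change 0.45, SE 0.162, edgeR adjusted p = 0.0199). The parvins PARVA and PARVB had log2 fold changes of 0.10 and 0.22 (edgeR adjusted p = 0.0353 and 0.0338), at 148 ± 4.72 against 158 ± 0.979 CPM and 17.4 ± 0.901 against 20.3 ± 0.345 CPM (SD, n = 3 each). Control and shMUC1 libraries did not overlap for any of the 3.

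These calls changed with single libraries and with the processing. PARVA lost its call when control replicate 3 or any shMUC1 library was left out (edgeR adjusted p from 0.0566 to 0.254), and PARVB without control replicate 1, control replicate 3, shMUC1 replicate 1 or shMUC1 replicate 2 (0.0642 to 0.128) and under DESeq2 (adjusted p = 0.0519). Library totals in place of TMM scaling ended the calls of PARVA and PARVB (edgeR adjusted p = 0.101 and 0.0556), and a mean of at least 50 counts ended that of PARVA (0.0998). LIMS2 lost it without control replicate 2 or shMUC1 replicate 1 (edgeR adjusted p = 0.097 and 0.101). LIMS1, which encodes PINCH-1, had the highest level per length of exon among the 5, and stood at 220 ± 4.76 CPM in control and 212 ± 12.8 CPM in shMUC1 libraries (SD, n = 3 each) and was not called. Without shMUC1 replicate 2 it was called lower, at -0.10 (edgeR adjusted p = 0.0294), and its related copies LIMS3 and LIMS4 had at most 2 counts in any library. How reads shared between these copies were counted is not given in the sources used here.

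ILK (chr11:6603708-6610874, plus strand), the pseudokinase at the centre of the complex, had 17, 15 and 6 counts in control and 15, 6 and 8 counts in shMUC1 libraries. The groups overlapped, with a 95% interval of log2 fold change from -1.43 to 0.62. These counts stood far below those of its partners LIMS1 and PARVA, at 0.155 CPM per kb of exon in control cells against 28.4 and 11.5. Annotated exons of genes on the opposite strand cover 78.5% of the exon bases of ILK, and TAF10 alone covers 2374 of its 3484 bases. TAF10, which encodes a subunit of a general transcription factor and was itself 38.9% covered by opposite-strand exons, had 41 to 61 counts per library. Among protein-coding rows with at least 50% of exon bases under opposite-strand exons, 70.4% of 169 had a mean under 50 counts. The share was 42.9% of 15577 rows with under 5% covered, 30.7% of 2825 rows with 5% to 25% covered, and 40.8% of 596 rows with 25% to 50% covered, where TAF10 falls. The strand setting of the counting and its treatment of reads that fall on both genes are not given in the sources used here, so the ILK count is uncertain and the part of the overlap in it was not tested.

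Among the 5 scaffold and actin-linking genes, 1 was higher, 2 were lower and 2 were not called. VCL, which encodes vinculin, the link between talin and actin, rose from 581 ± 2.89 to 741 ± 16.8 CPM (SD, n = 3 each). Its log2 fold change was 0.35 (SE 0.0289, edgeR adjusted p = 7.48e-13), with no overlap between the groups. The opposite-strand gene AP3M1 covers 11.1% of the VCL exon bases and moved the other way, at -0.25 on the log2 scale.

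Tensins bind beta subunit tails and actin at mature adhesions, and the members TNS1 and TNS3 were lower. Outside the members, TNS2 was not called (log2 fold change -0.45, edgeR adjusted p = 0.0765), and TNS4 had 6, 2 and 4 counts in control against 10, 10 and 6 and was not tested. TNS1 (chr2:217799588-218033982, minus strand) had 24.0, 22.8 and 25.4 CPM in control and 14.9, 15.1 and 18.1 CPM in shMUC1 libraries. TNS3 (chr7:47275154-47582558, minus strand) had 109, 97.6 and 111 CPM in control and 65.9, 68.1 and 61.4 CPM in shMUC1 libraries. No shMUC1 library reached a control library for either gene. TNS1 fell by 0.60 and TNS3 by 0.69 on the log2 scale (SE 0.0897 and 0.0502, edgeR adjusted p = 6.92e-07 and 2.29e-14).

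PXN and ZYX were not called. PXN, which encodes the scaffold paxillin, had 77.5 ± 4.12 CPM in control and 82.4 ± 2.80 CPM in shMUC1 libraries, with a 95% interval of log2 fold change from -0.01 to 0.18, and the opposite-strand gene PXN-AS1 covers 12.3% of its exon bases. ZYX, which encodes the force-responsive actin regulator zyxin, had 329 ± 15.6 and 319 ± 11.4 CPM, with an interval from -0.11 to 0.02 (SD, n = 3 each). ZYX was first of the 35 members per length of annotated exon in both groups.

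PTK2, which encodes focal adhesion kinase, had 424, 419 and 433 CPM in control and 439, 456 and 441 CPM in shMUC1 libraries. Every shMUC1 library lay above every control library, but the log2 fold change of 0.07 (SE 0.0308) missed the threshold (edgeR adjusted p = 0.0696). It passed with limma-voom (adjusted p = 0.0398) and without a low-count filter (edgeR adjusted p = 0.0483). BCAR1, which encodes the docking protein p130Cas that the kinase pathway phosphorylates, fell by 0.29 on the log2 scale (SE 0.058, edgeR adjusted p = 8.54e-05), from 67.3 ± 3.83 to 55.0 ± 4.90 CPM (SD, n = 3 each).

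**Figure D4:**
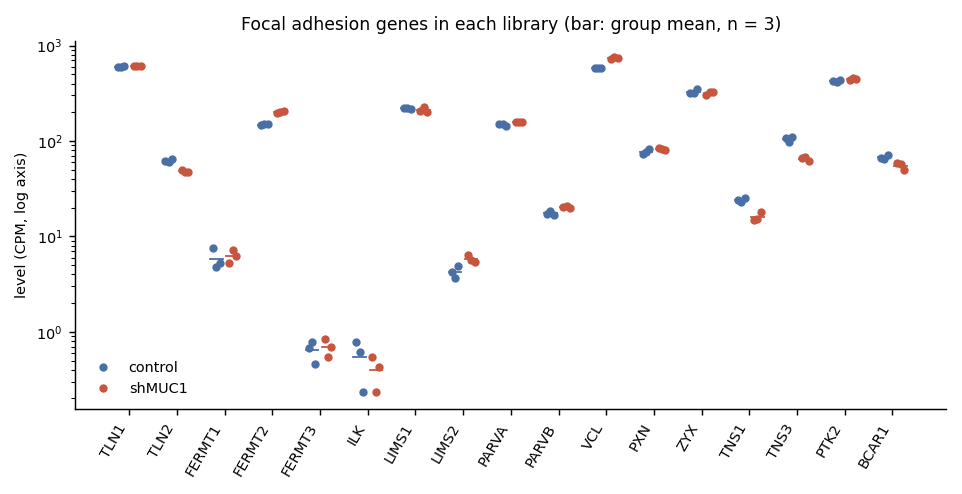
Level of the 17 focal adhesion members other than integrins in each library (CPM, log axis), with blue points for the 3 control and red points for the 3 shMUC1 libraries and short bars for group means. FERMT2 and VCL are higher and TNS1, TNS3, TLN2 and BCAR1 lower in all 3 shMUC1 libraries. ILK and FERMT3 lie under 1 CPM in all 6 libraries.

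Promoter windows of 300 bases (250 before to 50 after the start, RefSeq, GRCh38.p14) were found for 27 of the 35 members, 50 windows in all. The TEAD word CATTCC was in 7 of 50 windows, against 14.03% of 35116 promoters, and the AP-1 word TGANTCA in 4 (8.0%), against 7.71%. The ZEB word CACCTG, an E-box, was in 12 (24.0%), against 20.6%, and a CArG box in 1 (2.0%), against 1.29%. Both strands were searched. The windows of ITGA2, the member with the largest rise, and of VCL, which had the highest level per length of exon among the members that rose, are given on their plus strand, at chr5:52989102-52989401 and chr10:73997866-73998165. Capitals in VCL mark the reverse complement of the TEAD word, and the ITGA2 window holds none of the 4 words.
ITGA2: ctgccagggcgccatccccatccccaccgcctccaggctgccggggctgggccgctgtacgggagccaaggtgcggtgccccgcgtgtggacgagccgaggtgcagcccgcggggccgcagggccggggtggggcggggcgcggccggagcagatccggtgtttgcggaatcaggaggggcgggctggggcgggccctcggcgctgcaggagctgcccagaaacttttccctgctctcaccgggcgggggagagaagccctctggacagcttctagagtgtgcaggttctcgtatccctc
VCL: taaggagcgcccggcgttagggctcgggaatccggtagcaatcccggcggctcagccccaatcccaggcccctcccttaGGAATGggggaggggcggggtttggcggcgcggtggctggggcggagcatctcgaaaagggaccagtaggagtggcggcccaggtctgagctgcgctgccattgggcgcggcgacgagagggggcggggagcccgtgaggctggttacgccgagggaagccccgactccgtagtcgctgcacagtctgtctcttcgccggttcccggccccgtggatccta

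Other genes of the pathway were read from lists written from general knowledge. Of 56 further focal adhesion adaptors and kinases, 48 were tested, with 14 higher, 12 lower and a median log2 fold change of 0.06. The shares over all tested genes were 25.2% higher and 23.6% lower. TES, which encodes the zyxin partner testin, went from 95.9 ± 4.83 to 279 ± 8.17 CPM, and PALLD, which encodes the actin bundler palladin, from 149 ± 2.20 to 327 ± 13.1 CPM (SD, n = 3 each). Their log2 fold changes were 1.54 and 1.14, and that of CSRP1 was 0.62 (edgeR adjusted p from 7.59e-28 to 1.51e-17). RAPH1, ASAP1 and PDLIM5 fell by 1.01, 0.85 and 0.84 on the log2 scale (edgeR adjusted p from 2.17e-22 to 1.05e-13).

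Of 41 integrin ligands other than collagens, 28 were tested, with 8 higher, 12 lower and a median log2 fold change of -0.12. The shares over all tested genes were 25.2% higher and 23.6% lower. The laminin chain genes LAMB3 and LAMA3 were higher. LAMB3 went from 20.4 ± 1.98 to 55.8 ± 0.343 CPM, and LAMA3 from 3.88 ± 0.518 to 6.15 ± 0.734 CPM (SD, n = 3 each). Their log2 fold changes were 1.45 and 0.66 (edgeR adjusted p = 1.50e-19 and 0.00105). EDIL3, an alphaV ligand, fell by 1.28, and the laminin chains LAMC3 and LAMA1 fell by 0.77 and 0.64 on the log2 scale (edgeR adjusted p from 1.68e-11 to 0.000394). Of 8 integrins outside the members, 5 were tested, with ITGA6 and ITGB4 higher and the scarce leukocyte subunit ITGAX lower, a call that was lost without control replicate 1, without shMUC1 replicate 1 and with halved counts.

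**Figure D5:**
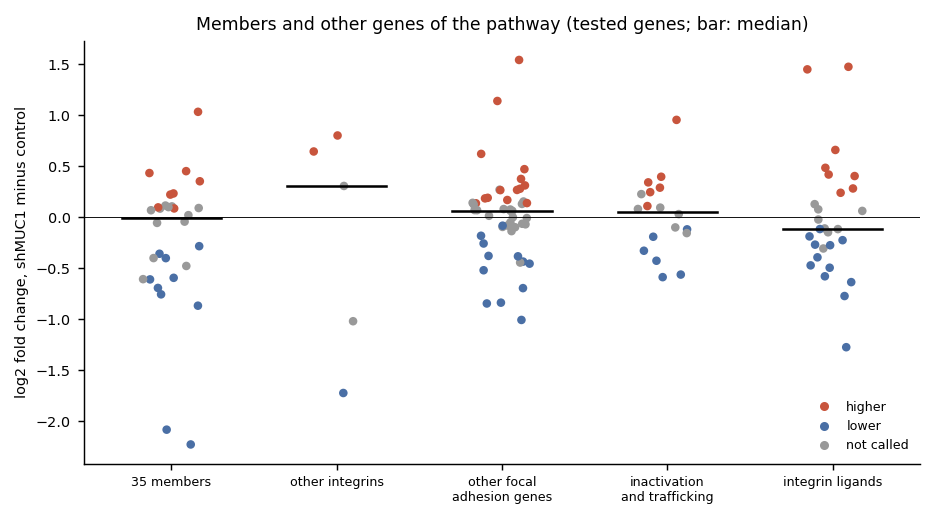
Log2 fold change (shMUC1 minus control, vertical axis) of every tested gene among the members and in 4 lists of other pathway genes, with red for higher, blue for lower and grey for not called, and black bars for medians. The medians run from -0.12 for integrin ligands to 0.31 for the 5 tested integrins outside the members, and each list holds genes on both sides of 0.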

How the data were processed

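The deposited table holds raw counts by gene symbol, 1 column per library, with replicates kept separate by the authors. Libraries were made with the TruSeq Stranded mRNA kit per the labels. The submitters' processing notes name CASAVA 1.8.2, STAR 2.7.9a, featureCounts, DESeq2 1.24.0 and GRCh38.p7, and the annotation release is not given in the sources used here. Among values from 1 to 20 counts, 68.8% to 70.5% were even in each library, so counts may be of both reads of a pair, and halved counts were tried. Library totals ran from 18678307 to 27825546, and libraries of a group differed beyond sampling noise (chi-square per degree of freedom 2.79 to 5.55).

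Counts were tested, two-sided, with edgeR 4.0.16 in R 4.3.3 (quasi-likelihood test, TMM scaling, filterByExpr, group as the only term) over 15355 genes with Benjamini-Hochberg adjustment, and called at an adjusted p under 0.05. The study's fold change threshold of 2 was kept as an alternative. CPM used TMM-scaled totals, and standard errors came from the F statistic of that test. The 95% intervals used these errors with the normal quantile, so they can be narrower than the test implies. For ITGB3 the interval ran from -0.96 to -0.0036, whereas its unadjusted edgeR p was 0.056. Scripts were tested on simulated data. Positions, exon lengths and 3' UTRs came from GENCODE release 29 (GRCh38), which matched 98.15% of rows, and promoters from RefSeq (GRCh38.p14).

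Per-library values are given for members called with a log2 fold change of at least 0.5 in size, for ITGB1, ITGAV, ILK, TLN1 and PTK2, and as counts for the scarcest members. From each list of other genes, the 3 largest rises and falls are named (called genes averaging at least 50 counts), and ITGAX was named after its values were seen. Some items that this rule names are not reported here. The members and lists were chosen with earlier results of these data known. Alternatives were DESeq2 1.42.0 and its size factors, no low-count filter, library totals without TMM, a minimum mean of 50 counts, limma-voom (limma 3.58.1), a replicate block, halved counts, each library left out, fold change thresholds of 2 and 1.5, and mean transcript length.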

Additional observations from a re-analysis of the deposited data

How the results depend on the processing

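The 18 called members gave 251 values over the alternative fits. All 251 kept the direction, and 231 of these also kept the call. The 8 higher members became 5 with library totals only, and from 4 to 8 when each library was left out. The 10 lower members became from 10 to 11 when each library was left out. With a fold change over 2, 1 member was higher and 2 were lower, and with a fold change over 1.5, 1 member was higher and 7 were lower. The count of all genes higher was 339 with a fold change over 2, 846 with one over 1.5, and 3481 to 3651 when each library was left out. The count of all genes lower was 575, 1280, and 3208 to 3481.

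TLN1 changed sign with library totals only (-0.0031) and with a mean of at least 50 counts (-0.0037). FERMT1 ranged from -0.0278 to 0.3081 when each library was left out and FERMT3 from -0.0933 to 0.281. FERMT1 changed sign without control replicate 2 (-0.0278) and without shMUC1 replicate 2 (-0.0269), and FERMT3 without control replicate 3 (-0.0933) and without shMUC1 replicate 1 (-0.0565). None of the 3 was called, and the cause was not tested.

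With mean transcript length in place of exon length, control levels per kb were 281.7 for ZYX, 200.4 for ITGAV, 342.5 for TLN1, 163.7 for VCL and 281.9 for ITGA3, which put TLN1 first, so the order of levels between genes and the shares of subunits depend on the length used.

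Deviations from the group mean had correlations of 0.0167, -0.0311 and -0.0359 between same-numbered libraries. For control replicate 1 no other shMUC1 library correlated more, whereas for control replicates 2 and 3 the 2 others did. With 3 libraries per group, these values cannot exclude pairing by number. With a replicate block, 8 members were higher and 10 lower, and MUC1 had a log2 fold change of -0.86. The 5 members outside the filter on low counts were tested without it, and ITGA11 was then called lower (-2.10). ITGA11 also passed the filter in 4 of the fits that left out a library, from -3.27 to -1.49, and missed the threshold without shMUC1 replicate 2.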

Other observations

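Genes that switch integrins off or move them through endosomes went both ways. Of 19, 18 were tested, with 6 higher, 6 lower and a median log2 fold change of 0.05. The shares over all tested genes were 25.2% higher and 23.6% lower. SYTL2, DAB2 and SNX17 were higher, with log2 fold changes of 0.95, 0.40 and 0.34, DAB2 and SNX17 being adaptors in integrin uptake and recycling. DAB2 went from 167 ± 3.06 to 219 ± 10.3 CPM (SD, n = 3 each). ARF6 and RAB4A, small GTPases of recycling, and CCDC88A fell by 0.59, 0.43 and 0.56 on the log2 scale. ARF6 went from 309 ± 3.59 to 205 ± 6.58 CPM (SD, n = 3 each). The edgeR adjusted p of these 6 genes ran from 4.06e-17 to 8.55e-06.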
